A study of Mus musculus with 4 samples.

Results

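The CYP2C family is a group of cytochrome P450 enzymes of the liver. The 10 mouse genes Cyp2c29, Cyp2c37, Cyp2c38, Cyp2c39, Cyp2c40, Cyp2c44, Cyp2c50, Cyp2c54, Cyp2c55 and Cyp2c70 were taken by their Entrez numbers from transcript tables that hold 17543 genes in all. All 10 had reads in each liver and passed the filter on low counts. Cyp2c44 is listed by RefSeq under its current symbol Cyp2c23 and is called Cyp2c44 here. RNA was sequenced from 2 livers of C57BL/6 mice homozygous for the K307R point mutation of Ezh2, written Ezh2(K307R/K307R), and from 2 livers of wild-type C57BL/6 mice, written WT. EZH2 is the enzyme of the Polycomb repressive complex PRC2 that methylates lysine 27 of histone H3. The design asks which liver transcripts differ between the genotypes. The labels name no treatment, sex, age or collection time, and do not say whether the replicates came from separate animals or how the allele was made. The p values then measure only the spread between these samples, which may be technical.

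CYP2C enzymes sit in the endoplasmic reticulum, take electrons from P450 oxidoreductase and add oxygen to fatty acids, steroids, bile acids and drugs. Many of them convert arachidonic acid to epoxyeicosatrienoic acids, lipid mediators that epoxide hydrolases break down to diols. In mouse liver several Cyp2c genes are known to respond to the nuclear receptors CAR and PXR, and some are known for levels that differ between the sexes.

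Total expected counts, the read numbers that RSEM assigns to transcripts, lay between 18602928 and 20044832 per liver, and the filter on low counts left 12837 genes for the test. All 8 hepatocyte markers examined were present. Their summed level was 133359 and 133979 CPM in the mutant livers and 148526 and 142363 CPM in the WT livers. CPM are counts scaled to library size and to the TMM normalization factor of edgeR. The genotypes differed in sex-chromosome transcripts. Xist, the RNA of X inactivation, was at 327 and 573 CPM in the mutant livers, against 0.347 and 0.284 CPM in the WT livers. The Y-linked genes Ddx3y, Eif2s3y, Kdm5d and Uty together had 0 and 0 reads in the mutant livers, against 2732 and 2551.5 reads in the WT livers. Genotype and sex-chromosome pattern therefore cannot be told apart in any result below. In whole liver, fewer cells of a type and less RNA per cell cannot be told apart either.

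Of the 10 genes, 9 lie in 1 cluster on chromosome 19 from 39006940 to 40187286 (mm10, the GRCm38 assembly), a span of 1.18 Mb. Cyp2c44 lies 3.82 Mb further along, from 44005022 to 44029256. In order along the chromosome the cluster holds Cyp2c55 (39006940 to 39042690), Cyp2c29 (39287044 to 39330713), Cyp2c39 (39347346 to 39569568), Cyp2c38 (39389556 to 39463103), Cyp2c40 (39767073 to 39812814), Cyp2c37 (39992424 to 40012243), Cyp2c54 (40037939 to 40073845), Cyp2c50 (40089679 to 40113955) and Cyp2c70 (40153361 to 40187286). The RefSeq span of Cyp2c39 includes an upstream start, so that it overlaps Cyp2c38. Cyp2c39 lies on the plus strand and Cyp2c38 on the minus strand.

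The loop that holds the haem of a P450 shows how close some members are. It is given here as the 30 coding bases, 5′ to 3′ in the direction of transcription, of each gene's GENCODE M21 transcript, with the codon of the haem-binding cysteine in capitals. In all 10 genes an intron interrupts these bases in the genome.
Cyp2c29: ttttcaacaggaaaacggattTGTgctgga
Cyp2c38: ttctcagcaggaaaacgggttTGTgctgga
Cyp2c39: ttctcagcaggaaaacgtgttTGTgctgga
Cyp2c37: ttctcaacagggaaacggataTGTgcagga
Cyp2c54: ttctcaacagggaaacggataTGTgcagga
Cyp2c50: ttctcaacaggaaaacggataTGTgcagga
Cyp2c40: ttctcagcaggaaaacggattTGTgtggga
Cyp2c55: ttctcaataggaaagcgaatgTGCgtggga
Cyp2c44: ttctccctcgggaagcgatccTGTgttggc
Cyp2c70: ttctcagcaggaagaagagctTGTattgga
Cyp2c37 and Cyp2c54 differed at 0 of these 30 bases, and Cyp2c38 and Cyp2c39 at 1. Cyp2c44 differed from every other member by at least 10 bases, and Cyp2c70 by at least 6.

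Over whole proteins, translated from the same transcripts, the 45 pairs of members ranged from 51.2% to 94.5% identical residues, with a median of 67.1%. Cyp2c37, Cyp2c50 and Cyp2c54 formed a trio with 91.2% to 94.5% identity. Cyp2c38 and Cyp2c39 were 92.0% identical, and Cyp2c29 was 84.7% and 84.9% identical to them. Cyp2c40 had no member as close, but was 89.8% to 91.7% identical to Cyp2c67, Cyp2c68 and Cyp2c69, which are Cyp2c genes of the same cluster outside the 10. The Cyp2c40 transcript used codes for 520 residues, against 491 for each of these. Identity was counted over all aligned columns, gaps included, so the extra residues lower every Cyp2c40 value. Among these is the lowest of the 45 pairs (51.2% with Cyp2c44). Cyp2c44, Cyp2c55 and Cyp2c70 had no copy above 80% identity among the 14 proteins compared.

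**Figure D1:**
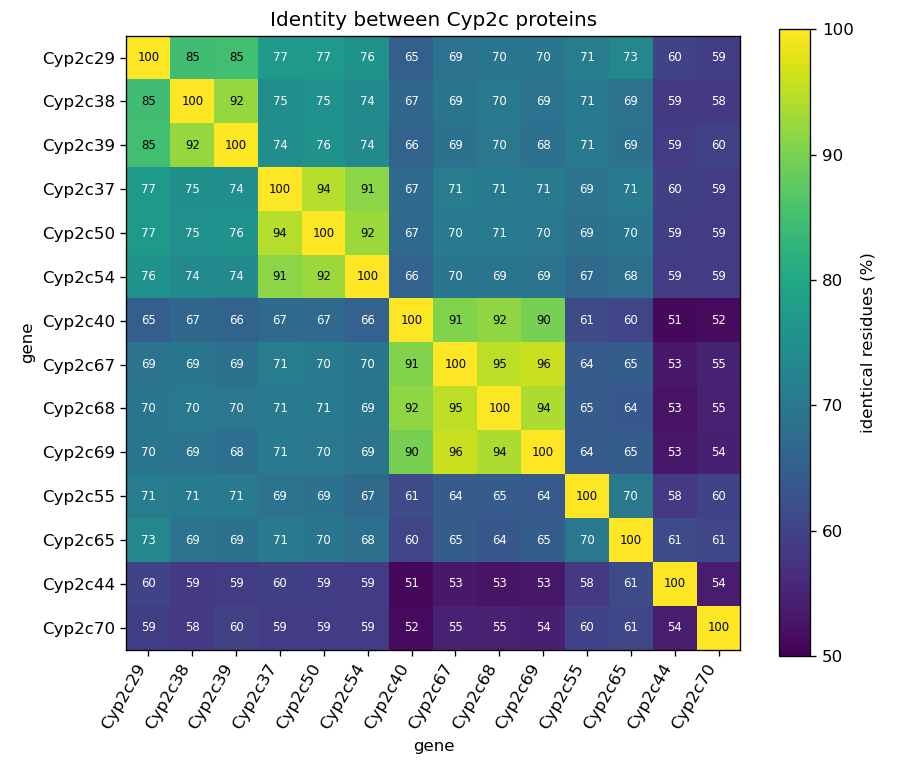
Percent of identical residues between the proteins of the 10 members and of Cyp2c65, Cyp2c67, Cyp2c68 and Cyp2c69, each cell holding 1 pair and its rounded value. The blocks of light cells are Cyp2c29 with Cyp2c38 and Cyp2c39, the trio Cyp2c37, Cyp2c50 and Cyp2c54, and Cyp2c40 with Cyp2c67, Cyp2c68 and Cyp2c69. Gaps count as different, which lowers the values of the longer Cyp2c40 protein.

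Close copies share reads, and the tables show where. Of all stretches of 50 bases in the coding sequence, 73.7% in Cyp2c40, 32.4% in Cyp2c50, 32.2% in Cyp2c37 and 26.9% in Cyp2c54 also occurred in another Cyp2c gene, against 13.7% in Cyp2c38, 13.1% in Cyp2c39, 0.633% in Cyp2c29 and 0.0% in Cyp2c44, Cyp2c55 and Cyp2c70. With stretches of 100 bases, 50.1% of Cyp2c40 and 5.76% of Cyp2c37 were shared and 0.0% of Cyp2c38, Cyp2c39 and Cyp2c29. The read counts of Cyp2c44, Cyp2c55 and Cyp2c70 were whole numbers in all 4 livers, within 0.05 reads, and those of the other 7 members were whole in 0 of 4 livers. Summed over all 15 Cyp2c genes in the tables, the counts were whole in 4 of 4 livers (178542 and 187785 reads in the mutants, 123810 and 106471 in the WT). The counts of Cyp2c44, Cyp2c55 and Cyp2c70 thus show no reads divided with another gene, and those of the other 7 members do.

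Among the 10 members, 3 were higher in the mutant livers (edgeR quasi-likelihood test, adjusted p under 0.05), where 1.39% of all genes tested were higher, and 0 were lower, where 1.47% of all genes tested were lower (2.86% in either direction). Without adjustment, 3 further members passed 0.05 on the higher side (Cyp2c29, Cyp2c40 and Cyp2c54) and 1 on the lower side (Cyp2c70). Over all genes tested, 8.5% were higher and 8.31% lower at that unadjusted threshold (16.8% in all). DESeq2 called 5 members higher and 0 lower, where it called 2.82% of all genes higher and 2.83% lower. The genes that rose were Cyp2c38, Cyp2c39 and Cyp2c37. The median log2 fold change of the 10 was 0.73, against 0.01 over all genes tested, and the values ran from -1.09 to 3.11. CPM did not overlap between the genotypes in 8 of the 10, a pattern seen in 48.6% of all genes tested (25.2% with the mutants higher and 23.4% with the mutants lower). Some values depended on the WT livers. The log2 fold change of Cyp2c29 was 1.65 without WT replicate 1 and 0.85 without WT replicate 2. That of Cyp2c55 was -1.64 without WT replicate 1 and -0.16 without WT replicate 2.

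**Figure D2:**
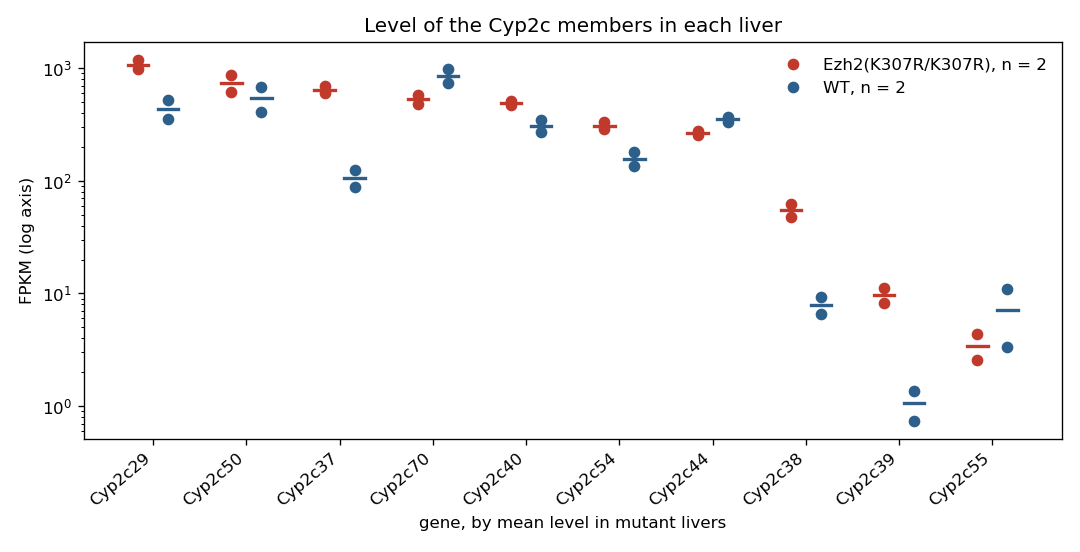
Level of each member in each liver as the authors' FPKM, summed over a gene's transcripts, on a log axis, with Ezh2(K307R/K307R) livers as red points, WT livers as blue points (n = 2 each) and bars at the means. Cyp2c37, Cyp2c38 and Cyp2c39 show the widest gaps between the genotypes, and Cyp2c50 and Cyp2c55 overlap.

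Levels below are FPKM, the authors' values per transcript length and library depth, and log2 fold changes are mutant minus WT from the edgeR fit on read counts. Cyp2c38, an arachidonic acid epoxygenase known for higher levels in female mouse liver, was at 48.0 and 62.7 FPKM in the mutant livers, against 6.53 and 9.25 FPKM in the WT livers. The lower mutant liver was above the higher WT liver, and the log2 fold change was 2.74 (SE 0.22, 95% interval 2.22 to 3.26, edgeR adjusted p = 0.00141), a 6.69-fold rise. Cyp2c39, its close copy, which also oxidises retinoic acid, was at 8.16 and 11.1 FPKM in the mutant livers, against 0.740 and 1.37 FPKM in the WT livers. Its WT values rest on 26.67 and 51.13 reads, the fewest of any member in a liver, while the mutant livers had 282 and 387 reads. It rose by 3.11 on the log2 scale (SE 0.30, 2.42 to 3.81, edgeR adjusted p = 0.00336), or 8.64-fold. Both genes kept their rise whichever liver was left out. As the sum of both, which takes no account of how their reads were divided, the log2 fold change was 2.78 (SE 0.23, edgeR adjusted p = 0.00140).

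Cyp2c29 is the close relative of this pair, an epoxygenase and one of the abundant CAR-inducible P450 enzymes of mouse liver. It was at 1170 and 976 FPKM in the mutant livers, against 518 and 350 FPKM in the WT livers. The groups did not overlap, but the log2 fold change of 1.20 (SE 0.33, 0.44 to 1.96) missed the threshold (edgeR adjusted p = 0.111). It passed without WT replicate 1 (log2 fold change 1.65, edgeR adjusted p = 0.00691), with total-count scaling (0.0491), with no filter (0.0332) and with DESeq2 (0.00167). Cyp2c29 made up 95.4% and 93.0% of the FPKM of the trio with Cyp2c38 and Cyp2c39 in the mutant livers, and 98.6% and 97.1% in the WT livers. With all reads of this trio summed into 1 feature, the log2 fold change was 1.28 (SE 0.32, edgeR adjusted p = 0.0846).

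Cyp2c37, which hydroxylates and epoxidises arachidonic acid, was at 691 and 595 FPKM in the mutant livers, against 125 and 87.4 FPKM in the WT livers. Both mutant livers were far above both WT livers. The log2 fold change was 2.50 (SE 0.32, 1.75 to 3.24, edgeR adjusted p = 0.0105), a 5.64-fold rise, and the rise kept its call whichever liver was left out. Its close copies moved less. Cyp2c54, an arachidonic and linoleic acid epoxygenase, was at 286 and 331 FPKM in the mutant livers, against 179 and 136 FPKM in the WT livers (log2 fold change 0.87, 0.22 to 1.51, edgeR adjusted p = 0.165). It passed without WT replicate 1 (log2 fold change 1.22, edgeR adjusted p = 0.0380) and with DESeq2 (0.0283). Cyp2c50, likewise an epoxygenase, was at 614 and 870 FPKM in the mutant livers and at 675 and 409 FPKM in the WT livers. These groups overlapped, and the log2 fold change was 0.34 (SE 0.36, -0.50 to 1.17, edgeR adjusted p = 0.707) and -0.071 without WT replicate 2.

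Within the trio the make-up differed. Cyp2c37 held 43.4% and 33.2% of the trio's FPKM in the mutant livers, against 12.7% and 13.8% in the WT livers. Cyp2c50 held 38.6% and 48.4% in the mutant livers, against 68.96% and 64.7% in the WT livers. Cyp2c54 held 18.0% and 18.4% in the mutant livers and 18.3% and 21.5% in the WT livers. Because 26.9% to 32.4% of their stretches of 50 bases are shared, these shares depend on how RSEM divided reads. With the trio's reads summed into 1 feature the log2 fold change was 0.98 (SE 0.33, 0.21 to 1.75, edgeR adjusted p = 0.190), so that the call of Cyp2c37 does not carry over to the sum.

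Cyp2c50 was the member with several transcripts at sizeable levels. NM_001167875 made up 52.8% and 49.4% of its FPKM in the mutant livers and 51.8% and 52.8% in the WT livers, and NM_134144 made up 43.9% and 47.7% in the mutant livers and 46.3% and 45.4% in the WT livers. The minor NM_001167877 was at 20.4 and 25.1 FPKM in the mutant livers and 13.0 and 7.30 FPKM in the WT livers. For Cyp2c44, NM_001001446 held 99.8% and 99.66% of the gene's FPKM in the mutant livers and 99.96% and 99.97% in the WT livers. The other 8 members had 1 transcript each in the deposited data. For Cyp2c39 this was NM_010003, and NM_001373937, which RefSeq also lists, had no values.

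Cyp2c40, a hydroxylase of arachidonic acid known for higher levels in females, was at 467 and 513 FPKM in the mutant livers, against 269 and 347 FPKM in the WT livers. The groups did not overlap, and the log2 fold change was 0.60 (SE 0.24, 0.05 to 1.14, edgeR adjusted p = 0.253). Its near copies are not among the 10 but share its reads. Cyp2c69, a female-biased gene in mouse liver, was at 687 and 952 FPKM in the mutant livers, against 50.5 and 106 FPKM in the WT livers, and rose by 3.34 on the log2 scale (SE 0.36, edgeR adjusted p = 0.00527). Cyp2c68 (log2 fold change 0.34, edgeR adjusted p = 0.534) and Cyp2c67 (-0.28, 0.704) did not pass the test. Cyp2c69 held 41.0% and 47.6% of the FPKM of these 4 genes in the mutant livers, against 6.401% and 12.1% in the WT livers. Cyp2c40 held 27.9% and 25.7% in the mutant livers, against 34.1% and 39.99% in the WT livers. Summed over the 4 genes, the log2 fold change was 1.07 (SE 0.25, edgeR adjusted p = 0.0756). Of the remaining Cyp2c genes examined, Cyp2c65 had at most 1 read in a liver, the pseudogene Cyp2c53-ps had at most 13.1, and both were below the filter. Cyp2c66 had no row in any table.

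Cyp2c70, the enzyme that makes the muricholic acids of mouse bile from chenodeoxycholic acid, was at 574 and 481 FPKM in the mutant livers, against 984 and 732 FPKM in the WT livers. Both mutant livers were below both WT livers, and its reads are whole numbers. The log2 fold change of -0.80 (SE 0.30, -1.51 to -0.10) missed the threshold (edgeR adjusted p = 0.235), except without WT replicate 2 (-1.10, edgeR adjusted p = 0.0472). Without WT replicate 1 it was -0.43 (edgeR adjusted p = 0.548). Cyp2c44, an epoxygenase also known from kidney and blood vessels, was at 276 and 255 FPKM in the mutant livers, against 334 and 369 FPKM in the WT livers (log2 fold change -0.49, -1.02 to 0.05, edgeR adjusted p = 0.348). Cyp2c55, known from colon, was low, at 4.34 and 2.54 FPKM in the mutant livers and 3.35 and 11.04 FPKM in the WT livers. These groups overlapped, and 1 liver, WT replicate 2, was high. Its log2 fold change was -1.09 (-2.18 to 0.01, edgeR adjusted p = 0.301), and it was -1.64 without WT replicate 1 (edgeR adjusted p = 0.00646) and -0.16 without WT replicate 2.

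**Figure D3:**
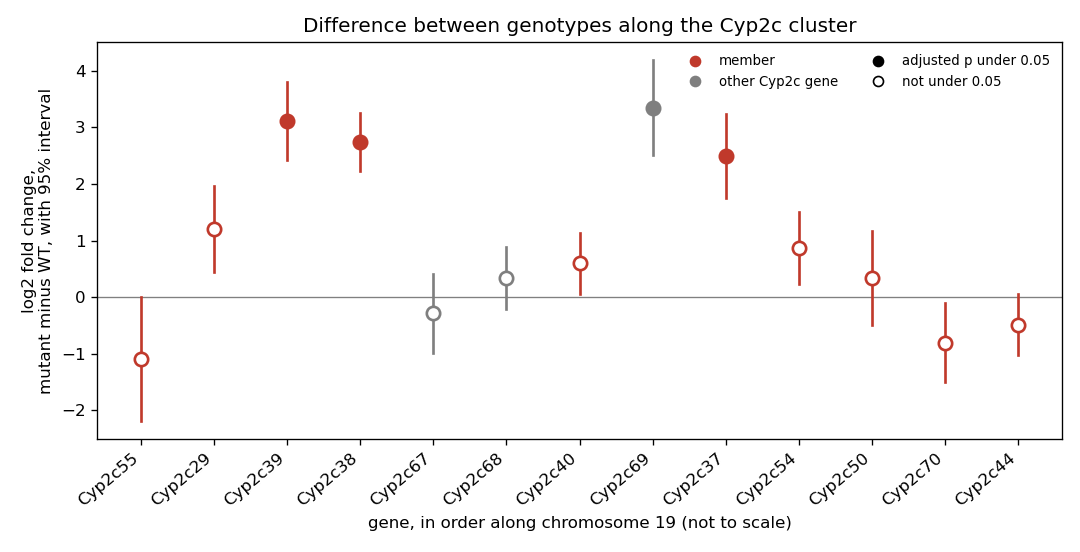
Log2 fold change, mutant minus WT, from the edgeR fit with its 95% interval, for the 10 members (red) and the 3 other Cyp2c genes tested (grey), in their order along chromosome 19, with filled points at an adjusted p under 0.05. The filled points are Cyp2c39, Cyp2c38, Cyp2c69 and Cyp2c37, which lie among genes with open points, and the lowest values are at the 3 genes Cyp2c55, Cyp2c70 and Cyp2c44.

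Neighbouring genes outside the Cyp2c group made no call. Within 500 kb of a member, 26 such genes were tested, 0 were higher and 0 lower in edgeR's test, with a median log2 fold change of -0.039. At an unadjusted p under 0.05, 7 of the 26 passed, against 16.8% of all genes tested, and DESeq2 called 3, against 5.65% of all genes. The smallest p values were those of Aldh18a1, an enzyme of proline synthesis (log2 fold change -1.96, edgeR adjusted p = 0.0719), and Erlin1, a protein of the endoplasmic reticulum (-0.78, 0.0819), both chosen after their values were seen.

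Summed over the 10 members, the level was 4139 and 4099 FPKM in the mutant livers, against 3096 and 2452 FPKM in the WT livers. This was 0.746% and 0.739% of all reads in the mutant livers, against 0.551% and 0.439% in the WT livers. The summed CPM was 7229 ± 194 in the mutants and 5158 ± 1398 in the WT (SD, n = 2 each), a ratio of 1.40 or 0.49 on the log2 scale, and the groups did not overlap. The log2 ratio was 0.79 without WT replicate 1 and 0.23 without WT replicate 2, so that the WT livers set much of its size. Over all 15 Cyp2c genes in the tables it was 0.64.

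The order of the levels also differed. Cyp2c70 had rank 4 and 5 of the 10 by FPKM in the mutant livers, against rank 1 in both WT livers. Cyp2c29 had rank 1 in both mutant livers, against rank 3 and 4 in the WT livers. The ratio of Cyp2c29 to Cyp2c70 within a liver was 2.04 and 2.03 in the mutants, against 0.527 and 0.478 in the WT. Cyp2c37 had rank 2 and 3 in the mutant livers, against rank 7 in both WT livers. In the mutant livers the neighbours Cyp2c70 and Cyp2c40 changed places between replicates, as did Cyp2c50 and Cyp2c37, so these neighbours did not differ beyond their spread. Cyp2c38, Cyp2c39 and Cyp2c55 held the last 3 places in every liver.

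**Figure D4:**
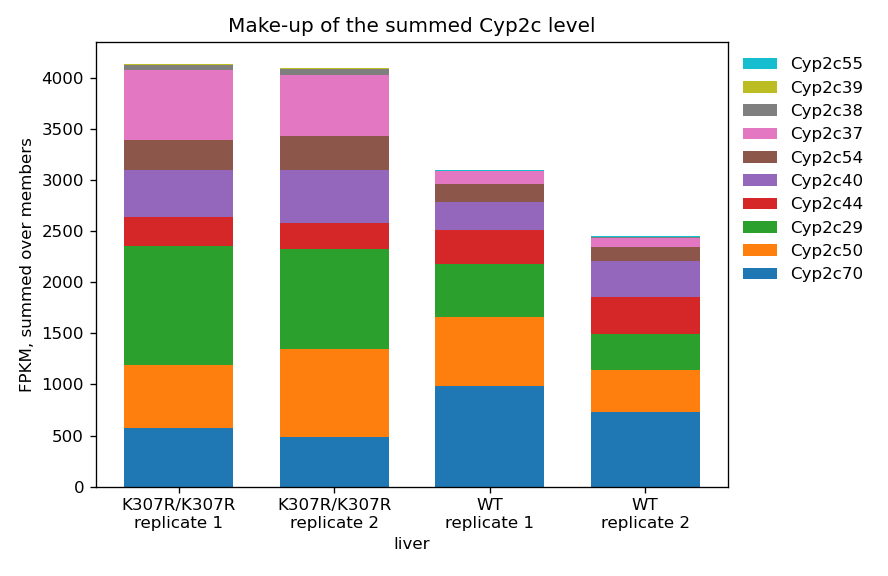
FPKM of the 10 members stacked for each liver, with the Ezh2(K307R/K307R) livers on the left and the WT livers on the right. The bars reach 4139 and 4099 FPKM in the mutant livers and 3096 and 2452 FPKM in the WT livers, with a larger part from Cyp2c29 and Cyp2c37 and a smaller part from Cyp2c70 in the mutants.

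Promoter windows, from 250 bases before to 50 bases after the start of a transcript, were found in RefSeq (GRCm38.p6) for 8 of the 10 members, 9 windows in all because Cyp2c39 has a pair. The windows of the genes that rose are shown with those of a close copy and of Cyp2c70, which did not. They are Cyp2c38 (chr19:39463026-39463325, minus strand), Cyp2c39 (chr19:39510572-39510871, plus strand), Cyp2c37 (chr19:39992174-39992473, plus strand), Cyp2c50 (chr19:40089429-40089728, plus strand) and Cyp2c70 (chr19:40187237-40187536, minus strand), each 5′ to 3′ on the gene's strand. Capitals mark matches to TGTTTAC (FOXA), TTGCNNAA (C/EBP), CAAAGTCCA (HNF4A) and AGGTCA (nuclear receptor element), on either strand, and the Cyp2c50 window held none of them.
Cyp2c38: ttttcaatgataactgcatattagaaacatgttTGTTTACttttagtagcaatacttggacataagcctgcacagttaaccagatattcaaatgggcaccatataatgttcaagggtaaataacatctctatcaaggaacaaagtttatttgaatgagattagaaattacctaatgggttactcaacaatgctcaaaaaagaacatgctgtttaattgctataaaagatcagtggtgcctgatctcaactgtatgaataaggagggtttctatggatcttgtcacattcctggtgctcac
Cyp2c39: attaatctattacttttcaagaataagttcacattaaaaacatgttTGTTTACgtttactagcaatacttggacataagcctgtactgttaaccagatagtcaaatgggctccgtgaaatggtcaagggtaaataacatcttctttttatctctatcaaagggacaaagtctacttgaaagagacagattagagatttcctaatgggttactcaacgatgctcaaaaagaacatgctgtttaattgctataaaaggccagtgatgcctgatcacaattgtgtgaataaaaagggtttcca
Cyp2c37: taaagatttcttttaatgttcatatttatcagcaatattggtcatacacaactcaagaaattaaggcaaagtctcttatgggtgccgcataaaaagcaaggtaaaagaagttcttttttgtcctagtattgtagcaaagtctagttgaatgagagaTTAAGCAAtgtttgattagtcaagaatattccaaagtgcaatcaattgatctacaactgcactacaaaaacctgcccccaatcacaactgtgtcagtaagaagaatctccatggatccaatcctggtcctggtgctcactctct
Cyp2c50: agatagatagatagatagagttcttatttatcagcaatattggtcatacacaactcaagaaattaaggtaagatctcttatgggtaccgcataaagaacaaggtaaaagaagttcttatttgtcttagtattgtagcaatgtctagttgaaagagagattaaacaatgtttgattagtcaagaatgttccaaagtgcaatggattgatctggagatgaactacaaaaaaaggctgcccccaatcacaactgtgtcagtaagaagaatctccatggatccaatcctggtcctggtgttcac
Cyp2c70: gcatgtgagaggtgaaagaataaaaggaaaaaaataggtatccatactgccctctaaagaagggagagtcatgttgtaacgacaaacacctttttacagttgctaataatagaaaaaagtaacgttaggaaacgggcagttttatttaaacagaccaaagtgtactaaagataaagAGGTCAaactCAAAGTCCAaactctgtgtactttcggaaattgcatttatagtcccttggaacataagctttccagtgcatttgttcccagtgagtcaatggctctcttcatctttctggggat
The windows of Cyp2c38 and Cyp2c39 were identical at 83.0% of 288 aligned positions, and those of Cyp2c37 and Cyp2c50 at 88.3% of 299. Cyp2c37 rose and Cyp2c50 did not pass the test. Whether the windows bear on the levels was not tested.

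TGTTTAC occurred in 3 of the 9 windows, those of Cyp2c38 and both of Cyp2c39, against 3.65% of all 32851 promoter windows. These windows belong to close copies (83.0% identical over 288 aligned positions for those shown), so they are not separate observations. CAAAGTCCA was in those of Cyp2c40 and Cyp2c70 (0.475% of all), and TTGCNNAA in those of Cyp2c40 and Cyp2c37 (10.8% of all). AGGTCA was in those of Cyp2c29 and Cyp2c70 and 1 of Cyp2c39 (16.3% of all). Outside the 9, CAAAGTCCA was also in the windows of Cyp2c65, Cyp2c67, Cyp2c68 and Cyp2c69, and TTGCNNAA in those of Cyp2c67 and Cyp2c69. The windows of Cyp2c40 and Cyp2c69 were identical at 98.9% of 270 aligned positions. The log2 fold change was 0.60 for Cyp2c40, which did not pass the test, and 3.34 for Cyp2c69, which rose. TTCNNNGAA (STAT5), TTATGNAA (the D-box of PAR bZIP factors and NFIL3) and an HNF1 motif were in 0 of the 9 windows, against 8.30%, 3.39% and 0.399% of all. TATAAA was in 6 of the 9 (13.6% of all). None of these 8 patterns overlapped another within the 5 windows shown, and a match is a description of letters, not of binding.

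Genes around the epoxygenase step were read by the same test. Of 16 genes of arachidonate release, binding and activation, 0 rose and 1 fell, against the 1.39% and 1.47% of all genes tested (median log2 fold change -0.12). At an unadjusted p under 0.05, 2 of the 16 were higher and 5 lower, against 8.5% and 8.31% of all genes tested. In edgeR's adjusted test 1 gene fell. This was Acsl4, the acyl-CoA synthetase that prefers arachidonic acid, at 46.2 and 55.0 CPM in the mutant livers, against 127 and 119 CPM in the WT livers (log2 fold change -1.28, edgeR adjusted p = 0.0182, and 0.0610 without mutant replicate 1). Of 6 electron donors of P450 enzymes, 0 rose and 0 fell in edgeR's test (median 0.11). At an unadjusted p under 0.05, 2 passed, against 16.8% of all genes tested, and DESeq2 called 1, against 5.65% of all genes. The smallest p was that of Cyb5r3, the cytochrome b5 reductase (log2 fold change -0.97, edgeR adjusted p = 0.0837). Of 10 other epoxygenases and epoxide hydrolases tested, 0 rose and 1 fell, against the same 1.39% and 1.47% (median -0.23). At an unadjusted p under 0.05, 1 was higher and 2 lower, against 8.5% and 8.31% of all genes tested. Cyp2u1, a fatty acid hydroxylase, was at 0.796 and 1.18 CPM in the mutant livers, against 20.5 and 9.51 CPM in the WT livers (log2 fold change -3.91, edgeR adjusted p = 0.00660, and -3.26 without WT replicate 1). The hydrolase genes Ephx1 (-0.46, edgeR adjusted p = 0.355) and Ephx2 (-0.18, 0.810) and the liver epoxygenase gene Cyp2j5 (0.23, 0.714), chosen after their values were seen, did not pass.

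The competing branches of arachidonic acid oxidation gave 3 calls. Of 13 omega-hydroxylases, 0 rose and 2 fell, against 1.39% and 1.47% of all genes tested (median -0.011). At an unadjusted p under 0.05, 4 were higher and 2 lower, against 8.5% and 8.31% of all genes tested. Cyp4a12a, a hydroxylase known for high levels in males, was at 0.0531 and 1.43 CPM in the mutant livers, against 323 and 40.6 CPM in the WT livers. Its log2 fold change was -7.91 (edgeR adjusted p = 0.0217), with -6.98 and -11.58 without mutant replicates 1 and 2 and -5.74 and -8.74 without WT replicates 1 and 2. Its near copy Cyp4a12b, with which it may share reads, had a value of -7.70 (edgeR adjusted p = 0.00974), with -6.75 and -12.34 without mutant replicates 1 and 2 and -6.38 and -8.39 without WT replicates 1 and 2. With limma-voom neither passed (adjusted p = 0.0851 for Cyp4a12a and 0.0634 for Cyp4a12b). The omega-hydroxylase genes Cyp4a14 and Cyp4a10, chosen after their values were seen, were higher in both mutant livers and missed the threshold. Cyp4a14 was at 250 and 1492 CPM in the mutant livers, against 11.8 and 63.4 CPM in the WT livers (log2 fold change 4.53, edgeR adjusted p = 0.0609). Cyp4a10 was at 287 and 1524 CPM in the mutant livers, against 78.5 and 132 CPM in the WT livers (3.10, edgeR adjusted p = 0.0649). Of 13 cyclooxygenase and lipoxygenase genes tested, 0 rose and 1 fell, against the same 1.39% and 1.47% (median 0.32). At an unadjusted p under 0.05, 1 was higher and 1 lower, against the same 8.5% and 8.31% of all genes. Ptgr1, which inactivates leukotrienes and prostaglandins, fell by 1.72 on the log2 scale (edgeR adjusted p = 0.0415, and 0.143 without mutant replicate 2). The call was also lost with total-count scaling (0.0742) and limma-voom (0.0506). Of 10 bile acid enzymes, set beside Cyp2c70, 0 rose and 0 fell in edgeR's test (median 0.26). At an unadjusted p under 0.05, 1 passed, against 16.8% of all genes tested, and DESeq2 called 1, against 5.65% of all genes. Cyp8b1, the sterol 12α-hydroxylase, had the smallest p (log2 fold change 1.09, edgeR adjusted p = 0.128).

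Among 30 tested regulators of Cyp2c transcription and of sex-dependent liver genes, 3 rose and 0 fell (median log2 fold change 0.098). In the same adjusted test 1.39% of all genes tested rose and 1.47% fell. At an unadjusted p under 0.05, 8 were higher and 4 lower, against 8.5% and 8.31% of all genes tested. Nr1i3, which encodes CAR, was at 94.2 and 143 CPM in the mutant livers, against 53.3 and 50.1 CPM in the WT livers (log2 fold change 1.20, edgeR adjusted p = 0.0441). It missed the threshold without mutant replicate 2 (0.87, edgeR adjusted p = 0.121) or WT replicate 2 (1.15, 0.0626), and with limma-voom (0.0539). Nfil3, a repressor that binds D-box elements, rose by 2.43 (edgeR adjusted p = 0.00515). Dbp, in the same list, was at 32.4 and 1.02 CPM in the mutant livers, against 136 and 115 CPM in the WT livers. Its log2 fold change of -2.91 missed the threshold (edgeR adjusted p = 0.216), as did those of Tef (-1.35, 0.138) and Hlf (-0.20, 0.669). Dbp, Tef and Hlf were chosen after their values were seen. The part of collection time, which the labels do not give, was not tested. Stat5a, a mediator of growth hormone signals, rose by 1.23 (edgeR adjusted p = 0.0450), a call lost without mutant replicate 2 (0.185) or WT replicate 2 (0.0639), and with limma-voom (0.0619). Whether these transcripts bear on the Cyp2c levels was not tested.

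CYP2C enzymes are typical of hepatocytes around the central vein, and both zones of the lobule were examined. Of 14 pericentral genes 2 rose and 0 fell (median 0.87), and of 14 periportal genes 2 rose and 0 fell (median -0.12). In the same adjusted test 1.39% of all genes tested rose and 1.47% fell. At an unadjusted p under 0.05, 8 pericentral genes were higher and 0 lower, and 3 periportal genes were higher and 1 lower. The shares over all genes tested were 8.5% higher and 8.31% lower at that threshold. The pericentral pair was Oat, ornithine aminotransferase (2.11, edgeR adjusted p = 0.0426), and Axin2, a WNT target (2.41, edgeR adjusted p = 0.0395, and 1.70 without mutant replicate 2). Neither passed when mutant replicate 2 was left out (edgeR adjusted p = 0.0877 for Oat and 0.148 for Axin2), and Axin2 did not pass with limma-voom (0.0710). The periportal pair was Ctsc, a protease (1.69, edgeR adjusted p = 0.00797), and Pigr, the transporter of immunoglobulin A (1.40, edgeR adjusted p = 0.0303). Pigr missed the threshold when mutant replicate 1 (edgeR adjusted p = 0.0790) or 2 (0.0859) was left out. The summed pericentral level was 12995 and 14165 CPM in the mutant livers, against 10005 and 6176 CPM in the WT livers, and the summed periportal level was 15796 and 13421 CPM in the mutant livers, against 15504 and 14697 CPM in the WT livers. Of the pericentral sum, Cyp2e1 alone made up 6454 and 7066 CPM in the mutant livers, against 4194 and 2647 CPM in the WT livers. Its log2 fold change was 0.98 (edgeR adjusted p = 0.158). The part of zonation in the Cyp2c differences was not tested.

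Markers of other cells were low beside these. Of 8 Kupffer cell, 8 sinusoidal endothelial, 8 bile duct, 7 lymphocyte and 5 intestinal and pancreatic markers tested, 0 passed in either direction in edgeR's test. At an unadjusted p under 0.05, 10 passed, against 16.8% of all genes tested, and DESeq2 called 1, against 5.65% of all genes. The 10 were 3 Kupffer cell, 4 endothelial, 1 bile duct, 0 lymphocyte and 2 intestinal and pancreatic markers. Summed Kupffer cell markers were at 397 and 264 CPM in the mutant livers and 226 and 260 CPM in the WT livers. Summed endothelial markers were at 137 and 155 CPM in the mutant livers and 95.1 and 115 CPM in the WT livers. Bile duct markers were at 85.8 and 133 CPM in the mutant livers and 122 and 102 CPM in the WT livers, and lymphocyte markers at 8.06 and 4.55 CPM in the mutant livers and 4.98 and 7.57 CPM in the WT livers. Intestinal and pancreatic markers were at 41.3 and 49.8 CPM in the mutant livers and 80.6 and 51.4 CPM in the WT livers, and 4 of 10, among them Prss2 and Cpa1, had no row in any table. Of 8 stellate cell markers 2 rose, Dcn (1.36, edgeR adjusted p = 0.0348) and Colec11 (1.505, 0.0354), and 1 fell, Col1a1 (-2.48, 0.0365). In the same adjusted test 1.39% of all genes tested rose and 1.47% fell. At an unadjusted p under 0.05, 5 of the 8 were higher and 2 lower, against 8.5% and 8.31% of all genes tested. The sum of the 8 was 336 and 260 CPM in the mutant livers and 157 and 268 CPM in the WT livers. Without mutant replicate 1 the calls of Dcn (edgeR adjusted p = 0.0747) and Colec11 (0.0814) were lost, and without mutant replicate 2 that of Col1a1 (0.105), whose log2 fold change was -1.57 without WT replicate 2. Colec11 also missed the threshold with total-count scaling (0.0555), and Col1a1 with total-count scaling (0.0541) and limma-voom (0.0674). Of 8 markers of kidney, another organ with Cyp2c44, 0 had enough reads to be tested, and 5, among them Umod and Aqp2, had no row in any table. The part of these cells in the Cyp2c differences was not tested.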

How the data were processed

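RNA-seq of 2 Ezh2(K307R/K307R) and 2 WT liver samples was grouped and numbered by the labels. Per the submitters' processing notes, the tools were HISAT, Bowtie2 and RSEM and the build mm10. Versions and use of strand are not given here. Each deposited table held expected counts per RefSeq transcript, estimated by RSEM and not normalized, per the file headers, and FPKM scaled by the authors to length and depth, per the file headers. Transcripts with no row were set to 0.

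Expected counts were summed per gene and rounded, and named by Entrez number from RefSeq GRCm38.p6 (17502 of 17543 genes). edgeR 4.0.16 in R 4.3.3 (TMM factors 1.014 and 1.043 in mutants, 0.896 and 1.055 in WT, filterByExpr, genotype only, 2 residual degrees of freedom) gave quasi-likelihood tests with Benjamini-Hochberg adjustment over 12837 genes, at 0.05. SEs were computed from the log2 fold change and its F value. The steps were tested on simulated counts. No p was computed for the family sum. Alternatives used RLE, upper-quartile and total-count scaling, DESeq2 1.42.0, limma 3.58.1, other filters, a replicate block, each liver left out, and close copies summed at 90% or 80% protein identity. Alignments used Biopython 1.88.

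The members and the gene lists, written from textbook knowledge (218 entries, all matched to a gene), were chosen with earlier results of these data known. One regulator is not reported here and was left out of its list. All members, the other Cyp2c genes, and from each list other than the cell type lists up to 4 called genes or, if none, the gene with the smallest p are named. Called cell type markers and Ephx1, Ephx2, Cyp2j5, Cyp2e1, Cyp4a10, Cyp4a14, Dbp, Tef, Hlf, Aldh18a1 and Erlin1 were added after their values were seen. Counts of few reads carry counting error.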

Additional observations from a re-analysis of the deposited data

How the results depend on the processing

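The number of members that were higher was 3 under RLE and upper-quartile scaling, limma-voom, limma on log2(FPKM + 1) and on log2(FPKM + 0.1), a mean of at least 1 CPM and the replicate block, 4 with total-count scaling and with no filter, and 5 with DESeq2. Leaving out a liver gave 3 to 5 higher and 0 to 1 lower members, and log2 ratios of the family sum of 0.23 to 0.79, with the ends at the WT livers. Other settings gave ratios of 0.47 to 0.64. Cyp2c50 changed sign without WT replicate 2 (-0.071), in a range of -0.071 to 0.89 over left-out livers. Cyp2c37, Cyp2c38 and Cyp2c39 kept their rise under each setting except those that sum close copies. There Cyp2c37 lost its call at 90% and 80% identity (log2 fold change 0.98), and Cyp2c38 and Cyp2c39 at 80% (1.28), where the sum is mostly Cyp2c29. Sums over all Cyp2c genes were chosen after seeing the data. The labels do not say that equal replicate numbers mark a shared litter or day. The correlation of the replicates' deviations between genotypes was 7.80e-04, and with the replicate block 3 members were higher and 0 lower, as without it, while 7 called genes of the other lists lost their call (Ptgr1, Nr1i3, Stat5a, Oat, Axin2, Dcn and Col1a1, edgeR adjusted p between 0.0506 for Dcn and 0.0743 for Oat). Over all genes, 178 were higher and 189 lower, against 369 and 370 with DESeq2, 410 and 419 with no filter, 188 and 124 with total-count scaling, 94 and 69 with limma on log2(FPKM + 1), and 91 and 70 on log2(FPKM + 0.1). They were 167 and 122 without mutant replicate 1, 117 and 94 without mutant replicate 2, 327 and 393 without WT replicate 1, and 302 and 305 without WT replicate 2. With 2 livers a genotype, intervals are wide and differences such as that of Cyp2c70 are not resolved, and Cyp2c39 and Cyp2c55 rest on few reads.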
